A study of Homo sapiens with 42 samples.

Results

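Cadherins and the genes of the epithelial-mesenchymal transition (EMT) were followed in cultured squamous cells, with and without the EGFR antibody cetuximab (CTX). The set held 10 genes of the 19775 with a value of their own on the array. CDH1, CDH3 and EPCAM stood for the epithelial side, CDH2, VIM and FN1 for the mesenchymal side, and ZEB1, ZEB2, SNAI2 and TWIST1 for the transcription factors. Each gene was read from 1 probe set, a group of short probes against 1 transcript region, chosen as the brightest over all arrays among those annotated to that gene alone. All 10 genes had such a probe set, no filter on low values was applied, and values are log2 expression, so a step of 1 is a doubling.

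Classical cadherins are calcium-dependent adhesion proteins that join neighbouring cells. E-cadherin, encoded by CDH1, holds epithelial sheets together, and in EMT it is repressed by zinc finger factors of the ZEB and SNAI families while N-cadherin, vimentin and fibronectin increase. In squamous carcinoma many cells keep both kinds of genes at once, a state often called partial EMT, and EGFR signalling is one of the inputs that can push keratinocytes toward it.

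The 42 arrays, of the Affymetrix hgu133plus2.0 design, fell into 14 groups of 3. Of the 7 head and neck squamous cell carcinoma (HNSCC) lines, SCC25, SQ20B, SCC61, SCC047, SCC090 and 93VU147T had a group given CTX at 100 nM for 24 h and an untreated control group. SCC1 had a CTX group and no control here, so no change could be computed for it, and HaCaT, an immortalised non-tumour keratinocyte line, had a control group and no CTX group. The study classes SCC047, SCC090 and 93VU147T as HPV-positive and the other HNSCC lines as HPV-negative. Each line is 1 cell population, and the labels do not say whether its 3 arrays came from separate cultures, so the p-values speak for the scatter of these arrays, which may be technical. The question was how epithelial or mesenchymal each untreated line was, and which of the 10 genes moved with CTX.

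Squamous identity was present in every untreated group. KRT5, a basal keratin, lay between 10.59 and 13.31, and the stratifin gene SFN between 12.79 and 13.61, while KRT14, the keratin partner of KRT5, was at 4.85 in SQ20B and 5.77 in SCC090, near the median of all values on the arrays (5.13). PTPRC of leukocytes and CDH5 of endothelium were at or below 4.30 in all 14 groups. Of the whole lists, 1 to 4 of 6 leukocyte markers lay below that median, with summed linear signals of 153 to 448 per array and the highest in the SCC047 controls, and 2 to 3 of 6 endothelial markers, with sums of 198 to 296. DUSP6, a phosphatase gene that follows MAPK activity, fell in all 6 lines that had both groups, with log2 changes between -4.56 in SQ20B and -0.72 in SCC047. Array medians lay between 5.09 and 5.16.

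One array stood apart before any comparison. SCC090 control replicate 1 had the lowest mean correlation with its own group of all 42 arrays (0.991), and 229 genes on it lay at least 1 log2 unit from the mean of the other 2 SCC090 controls, against 56 or fewer on any other array. The genes of the set that it displaced most were CDH2, VIM, SNAI2 and CDH1. CDH2 read 9.47 on it against a mean of 7.72 on the other 2, VIM 10.80 against 9.46, SNAI2 9.37 against 9.80 and CDH1 11.02 against 11.39. Results that rest on this array are given with and without it. By the codes in the array names, arrays came from 3 batches of 35, 4 and 3 arrays. The batch of 3 was HaCaT alone, so for HaCaT the line and the batch cannot be told apart, and the batch of 4 held the SCC1 arrays with 1 SQ20B control.

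**Figure D1:**
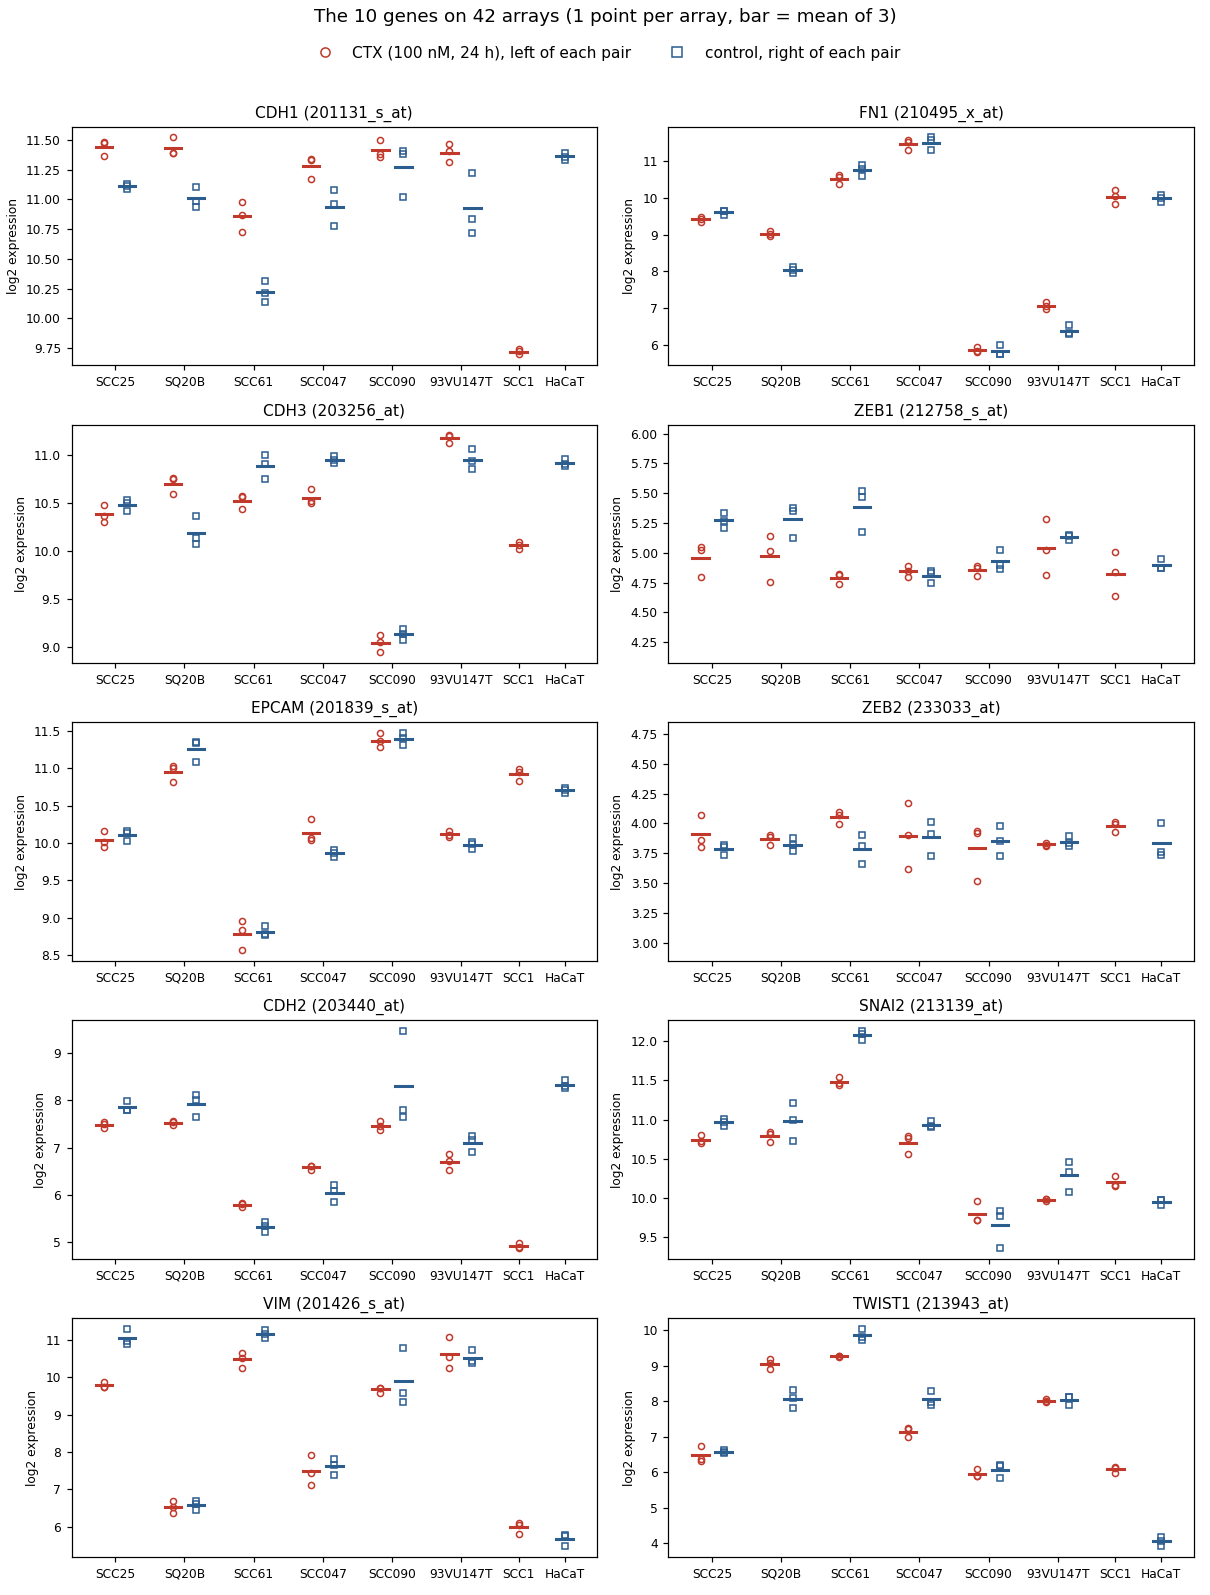
Each panel shows 1 gene, with log2 expression on the vertical axis and the 8 lines along the horizontal axis. Circles are CTX arrays and squares control arrays, 1 point per array, and the bar is the mean of 3. VIM, FN1 and TWIST1 span over 5 log2 units between untreated lines, ZEB2 stays between 3.79 and 3.88 in them, and 1 SCC090 control array sits far above its group for CDH2 and VIM.

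The untreated lines all kept E-cadherin. CDH1 was highest in HaCaT, on whose arrays it read 11.33, 11.39 and 11.36, and lowest in SCC61, at 10.31, 10.21 and 10.13. SCC090 averaged 11.27 ± 0.21 (SD, n = 3, as for all groups), SCC25 11.11 ± 0.02, SQ20B 11.01 ± 0.09, SCC047 10.94 ± 0.15 and 93VU147T 10.92 ± 0.26. Along this order the single step larger than the spread was the last, in which SCC61 lay 0.70 below 93VU147T (limma, adjusted p = 7.77e-08), and the whole range was 1.14 log2 units, or 2.20-fold. The other groups formed a run in which no neighbours differed beyond their spread. In RNA from whole cultures, fewer cells in a state and less RNA per cell cannot be told apart, here and for every gene below. Without the deviating array, SCC090 was also above SCC25 for CDH1, by 0.28 (adjusted p = 0.0150).

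CDH3 and EPCAM did not follow that order. P-cadherin, encoded by CDH3 and typical of basal keratinocytes, averaged 10.96 ± 0.11 in 93VU147T, 10.95 ± 0.03 in SCC047, 10.92 ± 0.04 in HaCaT and 10.89 ± 0.13 in SCC61, 4 groups whose neighbours did not differ beyond their spread. It was lower in SCC25 (10.49 ± 0.06) and SQ20B (10.19 ± 0.16), and SCC090 lay lowest on arrays of 9.08, 9.19 and 9.14, 1.06 below SQ20B (adjusted p = 6.79e-15). EPCAM, an adhesion protein of simple and many carcinoma epithelia, ran the other way in SCC090: that line was highest at 11.39 ± 0.08, close to SQ20B at 11.26 ± 0.15, followed by HaCaT at 10.70 ± 0.04. SCC61 was again lowest, with EPCAM at 8.78, 8.90 and 8.76, which was 1.05 below SCC047, the next group (adjusted p = 4.78e-13). Thus SCC61 was low for CDH1 and EPCAM but not for CDH3, and SCC090 was low for CDH3 alone among the 3.

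N-cadherin ran with E-cadherin rather than against it. CDH2, the adhesion gene of neural and mesenchymal cells, was highest in HaCaT at 8.26, 8.30 and 8.44 and lowest in SCC61 at 5.21, 5.33 and 5.42, a range of 3.01 log2 units or 8.08-fold. Between them lay SCC090 (8.30 ± 1.01), SQ20B (7.93 ± 0.25), SCC25 (7.86 ± 0.11), 93VU147T (7.11 ± 0.18) and SCC047 (6.05 ± 0.19), and each of the last 3 steps down passed the test. Over the 7 untreated group means the Pearson correlation of CDH2 with CDH1 was 0.89 and with TWIST1 -0.81, which describes 7 points, one of them the HaCaT batch. Without SCC090 control replicate 1, SCC090 had a lower CDH2 level than HaCaT by 0.61 (HaCaT minus SCC090, adjusted p = 1.63e-05), against a difference of 0.03 with it. With that array out SCC25 and SQ20B were also below HaCaT, which exceeded them by 0.47 (adjusted p = 0.00015) and 0.41 (adjusted p = 0.000807).

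Vimentin set HaCaT and SQ20B apart from the lines with high levels. VIM, the intermediate filament of mesenchymal cells, read 11.17, 11.05 and 11.27 in SCC61, and 10.90, 10.97 and 11.29 in SCC25. HaCaT, at 5.49, 5.79 and 5.75, had the lowest values, and the 2 ends of the order differed by 5.49 log2 units, or 44.9-fold. 93VU147T (10.51 ± 0.19) and SCC090 (9.91 ± 0.78) were also high, whereas SCC047 (7.62 ± 0.22) and SQ20B (6.59 ± 0.13) lay between them and HaCaT. Every neighbouring pair but SCC61 and SCC25 differed, the largest step being that of 2.29 between SCC090 and SCC047 (adjusted p = 2.62e-11). The step of 0.61 between 93VU147T and SCC090 was 1.06 without the deviating array. A second VIM probe set, 1555938_x_at, stayed between 3.15 and 3.38 in all 14 groups and so carried none of this order.

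FN1, which encodes the matrix glycoprotein fibronectin, put the lines in yet another order, and here every step between neighbours passed the test. SCC047 was highest on arrays of 11.56, 11.31 and 11.64, followed by SCC61 (10.76 ± 0.15), HaCaT (9.98 ± 0.10), SCC25 (9.61 ± 0.06), SQ20B (8.04 ± 0.08) and 93VU147T (6.39 ± 0.14). SCC090 closed the order at 6.01, 5.76 and 5.75, and the range came to 5.66 log2 units or 50.6-fold. SCC090 and 93VU147T thus combined high vimentin with low fibronectin, and HaCaT the reverse.

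Among the transcription factors, SNAI2 and TWIST1 were both highest in SCC61. SNAI2, which encodes the Slug repressor and is part of the basal keratinocyte programme, read 12.01, 12.13 and 12.09 in SCC61, 1.10 above SQ20B, the next line. SCC25 (10.97 ± 0.04) and SCC047 (10.94 ± 0.04) were not separated from SQ20B, and SCC090 was lowest with 9.37, 9.77 and 9.83. SNAI2 was 0.30 lower in SCC090 than in HaCaT (HaCaT minus SCC090, adjusted p = 0.0128), and without the deviating array that difference was 0.15 and was not called (adjusted p = 0.216). TWIST1, a basic helix-loop-helix factor of mesoderm and neural crest, had the widest range of the 10 genes: it read 9.81, 10.03 and 9.73 in SCC61 and 3.92, 4.18 and 4.06 in HaCaT, 5.80 log2 units or 55.9-fold apart. SQ20B, SCC047 and 93VU147T formed a middle group between 8.05 and 8.08, and SCC25 (6.58 ± 0.04) and SCC090 (6.07 ± 0.20) were lower.

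ZEB1 and ZEB2, which encode zinc finger repressors of CDH1, were dim. ZEB1 lay between 4.81 and 5.39 in the untreated groups, below the median of all values in 10 of the 14 groups, and none of its neighbouring steps passed the test, although SCC61 with 5.17, 5.47 and 5.52 differed from SCC047 with 4.85, 4.75 and 4.83. ZEB2 lay below that median in all 14 groups and spanned 0.10 log2 units over the untreated ones. At such signals the array limits what can be seen, and a small range does not show that the transcripts were equally abundant.

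Over all pairs of the 7 untreated groups, 150 of the 210 comparisons of the 10 genes passed an adjusted p of 0.05, beside 53.8% of such comparisons over all genes. FN1 differed in 21 of 21 pairs, VIM in 20, EPCAM, SNAI2 and TWIST1 in 18 each, CDH3 and CDH2 in 15 each, CDH1 in 13, ZEB1 in 12 and ZEB2 in none. In the share of all genes with a smaller range, TWIST1 (99.3%), FN1 (99.2%) and VIM (99.0%) stood near the top, CDH1 (56.6%) in the middle and ZEB2 (0.455%) at the bottom.

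To place the lines on 1 axis, each gene was centred on its mean over the 7 untreated groups, and the mean of the 3 epithelial genes was subtracted from the mean of the 7 others. This gave 1.53 for SCC61, 0.48 for SCC25, 0.14 for SCC047, -0.11 for 93VU147T, -0.40 for SQ20B, -0.49 for SCC090 and -1.15 for HaCaT. The difference describes these genes and carries no test. On this difference SCC61 lay at the mesenchymal end on all 3 arrays (1.45 to 1.64) and HaCaT at the epithelial end (-1.21 to -1.10). The order was the same when ZEB1 and ZEB2 were left out. Their ranges over the untreated groups were only 0.58 and 0.10, so leaving them out could change the order little. VIM, FN1 and TWIST1, with ranges of 5.49, 5.66 and 5.80, weighed most on the mesenchymal side, and none of them was left out. Single genes went against this placing. Centred CDH2, counted as mesenchymal, was -1.95 in SCC61 and 1.06 in HaCaT, centred FN1 was 1.11 in HaCaT, and centred CDH3 was 0.38 in SCC61. Wider gene lists, described below, did not put untreated HaCaT last for mesenchymal genes. For 20 cytoskeletal and surface genes the median centred level was -0.09 in HaCaT and -1.71 in SCC090. It was -0.19 and -0.68 for 17 matrix genes, and 0.72 and -1.90 for 11 genes linked to partial EMT. For 20 junction and polarity genes HaCaT was highest, at 0.43. For 12 epithelial regulators it was at 0.30, below SCC090 at 0.74. The SCC090 controls ran between -0.71 and -0.09, a span set by the deviating array.

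**Figure D2:**
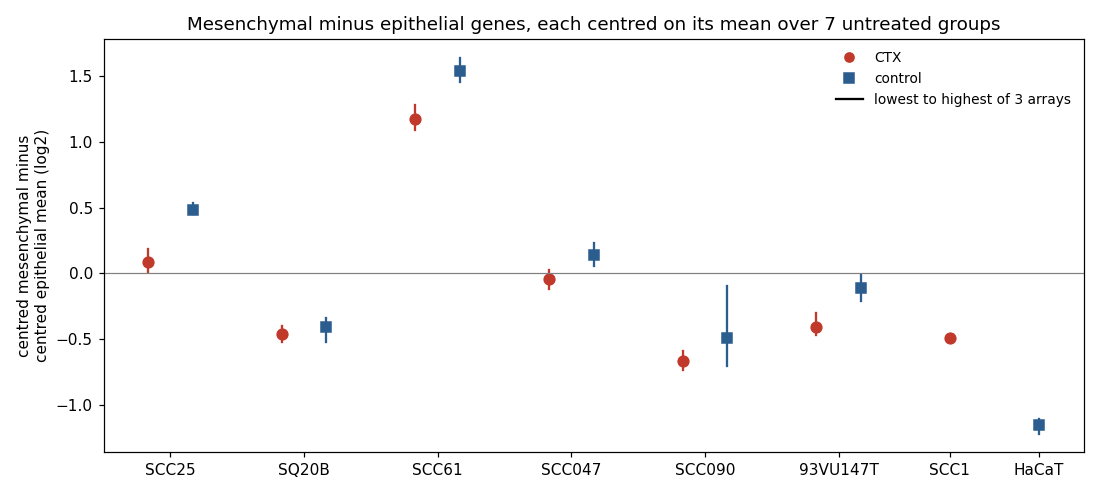
The vertical axis is the centred mesenchymal mean minus the centred epithelial mean in log2 units, and the lines stand along the horizontal axis, CTX left of control. Symbols are means of 3 arrays and vertical bars run from the lowest to the highest array. SCC61 is highest (1.17 with CTX, 1.53 in control) and HaCaT lowest (-1.15), and the CTX mean lies below the control mean in all 6 lines with both groups. In SCC090 this holds only with the deviating control array included. In SQ20B it holds only with ZEB1 and ZEB2 included, and the arrays overlap. The long bar is that of the SCC090 controls, which runs from -0.71 to -0.09.

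Other genes of the same pathways showed where the lines differed beyond the 10. SCC090 was low for cytoskeletal and surface genes of mesenchymal cells: MSN, which encodes moesin, was at 5.28 there against 11.07 to 12.01 in the other untreated groups, the caldesmon gene CALD1 at 3.67 against 6.78 to 10.33, and the receptor gene AXL at 4.15 against 8.51 to 10.68. The TGF-beta-induced matrix gene TGFBI was at 5.73 in SCC090 and at 11.21 to 12.83 elsewhere. These 4 lay far below the other lines in SCC090, while its vimentin did not. They were named for their wide ranges over the untreated groups, so that some group lay far out followed from the choice. Of the whole list of 20 cytoskeletal and surface genes, 8 lay below the median of all values in SCC090, against 1 in each other untreated group. Of 17 matrix genes 10 did so, against 3 to 6 in the other untreated groups.

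With CTX, E-cadherin rose in 5 of the 6 lines, and SCC61 moved at the most of the 10 genes. Over the 60 gene-by-line values 25 passed an adjusted p of 0.05, 12 of them higher and 13 lower in CTX, beside 27.6% of such values over all genes (14.2% higher and 13.4% lower). The mean of the 6 line changes passed for 2 genes upward (CDH1 and FN1) and 4 downward (VIM, ZEB1, SNAI2 and TWIST1), beside 22.8% of all genes upward and 23.1% downward. Of the 25 calls, 14 held when each array of the line was left out in turn and 11 were lost with at least 1 array out.

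CDH1 was the gene with the most even response. In SCC61 it read 10.72, 10.98 and 10.87 with CTX against 10.31, 10.21 and 10.13 in control, a log2 change of 0.64 ± 0.10 (standard error, as for all changes) or 1.55-fold (limma, adjusted p = 5.14e-06). In 93VU147T the arrays were 11.46, 11.31 and 11.40 with CTX and 10.72, 10.84 and 11.22 in control (change 0.47, adjusted p = 0.000553). In SQ20B they were 11.52, 11.39 and 11.39 against 10.99, 11.10 and 10.94 (change 0.42, adjusted p = 0.00159). CTX arrays lay above every control array in these 3 lines.

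Smaller changes followed in SCC047 (0.34, adjusted p = 0.0093) and SCC25 (0.33, adjusted p = 0.0251), again without overlap of the arrays, and SCC090 gave 0.14 with overlapping arrays and no call, and 0.02 without the deviating array (adjusted p near 1). The SCC25 call was lost without any 1 of 5 of its 6 arrays (adjusted p between 0.0502 and 0.0858) and the SCC047 call without control replicate 2 (adjusted p = 0.0824). The mean change over the 6 lines was 0.39 ± 0.04 (adjusted p = 6.59e-09). With all arrays CDH1 was positive in all 6 lines, as were 2.96% of all genes, the sixth being SCC090, and it was called higher in at least 5 lines, as were 0.329% of all genes. The second CDH1 probe set, 201130_s_at, rose by 0.58 in SCC61 and by 0.56 in 93VU147T, but gave -0.22 in SQ20B, 0.22 in SCC25 and 0.30 in SCC047 with no call. The test was over all probe sets for this and the other second probe sets below. The 3′ minus 5′ signal of ACTB was higher with CTX in SCC25 (0.07), SQ20B (0.29) and SCC047 (0.11), without overlap of arrays. That of GAPDH was also higher in SQ20B (0.07) and SCC047 (0.04), again without overlap. Their part in the CDH1 changes of these lines was not tested.

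The other epithelial genes moved in different directions in different lines. CDH3 rose in SQ20B, with 10.75, 10.60 and 10.76 under CTX against 10.13, 10.37 and 10.08 in control (change 0.51, adjusted p = 5.84e-06), and in 93VU147T by 0.23 (adjusted p = 0.0267). It fell by 0.40 in SCC047 (10.65, 10.53 and 10.50 with CTX, 10.99, 10.95 and 10.92 in control, adjusted p = 0.000167) and by 0.36 in SCC61 (adjusted p = 0.000355), so its mean change was -0.03 and was not called, whereas without SQ20B it was -0.14 and called (adjusted p = 0.000922). The 93VU147T call was lost without either of control replicates 1 and 2 and without either of CTX replicates 1 and 2 (adjusted p between 0.0679 and 0.140). EPCAM fell by 0.31 in SQ20B (10.95 ± 0.12 with CTX, 11.26 ± 0.15 in control, adjusted p = 0.00809) and rose by 0.28 in SCC047 (10.06, 10.04 and 10.32 with CTX, 9.91, 9.86 and 9.81 in control, adjusted p = 0.0158). After quantile normalization EPCAM in SCC047 (0.20, adjusted p = 0.0718) and CDH3 in 93VU147T (0.16, adjusted p = 0.104) were no longer called. The EPCAM call in SQ20B was lost without control replicate 1 or CTX replicate 3 and the SCC047 call without control replicate 3 or CTX replicate 3.

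CDH2 passed the test in no line in the fit of the 36 arrays, where its standard error was 0.23. In SCC090 its change of -0.84, which rests on the deviating control, passed with batch as a covariate (adjusted p = 0.0335), with an intensity trend (adjusted p = 0.0490) and with all 42 arrays in the fit (adjusted p = 0.0340). CDH2 arrays did not overlap in any line: CTX lay below control in SCC25, SQ20B, SCC090 and 93VU147T and above it in SCC61 and SCC047. Separation without a call was also seen for other genes of the set, such as FN1 and SNAI2 in SCC25. The separation carries no test, its share over all genes is not given, and it does not stand in for a call. SCC61 read 5.81, 5.82 and 5.75 with CTX against 5.21, 5.33 and 5.42 in control, and SCC25 read 7.41, 7.51 and 7.54 against 7.80, 7.81 and 7.99.

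With SCC090 control replicate 1 left out, an alternative added after the values were seen, the standard error was 0.11 and CDH2 passed in 5 lines. It was then lower with CTX in SCC25 (-0.38, adjusted p = 0.0103), SQ20B (-0.39, adjusted p = 0.00396) and 93VU147T (-0.41, adjusted p = 0.00286), and higher in SCC61 (0.47, adjusted p = 0.000403) and SCC047 (0.53, adjusted p = 0.000149). In SCC090 itself the change was -0.26 without the array (adjusted p = 0.713) and -0.84 with it (adjusted p = 0.0624). The mean over lines, -0.17 and not called with all arrays, was called without SCC61 (-0.30, adjusted p = 0.0378) or SCC047 (-0.31, adjusted p = 0.0259). The lines that gained CDH2 were those with the lowest untreated levels. The change and the untreated level share the same control arrays and so are not independent, here and for VIM, SNAI2 and ZEB1 below.

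VIM fell in the 2 untreated lines where it was highest. SCC25 read 9.89, 9.74 and 9.75 with CTX against 10.90, 10.97 and 11.29 in control, a change of -1.26 ± 0.23 or 2.40-fold lower (adjusted p = 0.000165). SCC61 read 10.66, 10.26 and 10.53 with CTX against 11.17, 11.05 and 11.27 in control (change -0.68, adjusted p = 0.016), a call lost without control replicate 3 (adjusted p = 0.0537) or CTX replicate 2 (adjusted p = 0.083). In SQ20B, SCC047, SCC090 and 93VU147T the changes lay between -0.23 and 0.12, with overlapping arrays and no call. The SCC090 value of -0.23 was 0.22 without the deviating array, also not called (adjusted p = 0.994). The mean change was -0.37 (adjusted p = 0.00162) and rested on SCC25, without which it was -0.20 (adjusted p = 0.147). The second VIM probe set, which carried no difference between lines, gave 0.01 in SCC25. The 3′ minus 5′ signal of ACTB was higher with CTX in SCC25 by 0.07, without overlap of arrays, and its part in the VIM change was not tested.

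FN1 rose in SQ20B and 93VU147T. SQ20B arrays were 9.09, 8.96 and 9.02 with CTX against 8.03, 7.96 and 8.11 in control, a change of 0.99 ± 0.10 or 1.99-fold (adjusted p = 1.1e-09), and 93VU147T arrays were 7.18, 6.97 and 7.06 against 6.34, 6.29 and 6.55 (change 0.67, adjusted p = 1.52e-06). In SCC61 it fell by 0.24, with overlapping arrays (adjusted p = 0.0383), a call lost without control replicates 1 or 2 or CTX replicates 1 or 2 and with centred array medians (adjusted p = 0.0659), and SCC25, SCC047 and SCC090 gave no call. The mean change of 0.20 (adjusted p = 8.94e-05) was 0.04 without SQ20B (adjusted p = 0.450). A further 4 FN1 probe sets also rose in SQ20B, by 0.49 to 1.22, and 2 were not called.

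Beside FN1 in SQ20B, 2 of 10 fibroblast markers rose (COL1A1 by 1.83 and LUM by 0.50) and 1 fell (THY1), beside 18.4% and 14.9% of all genes, and their summed linear signal was 429 to 446 with CTX against 311 to 320 in control. Of these 10 markers, 6 lay below the median of all values with CTX and 6 in control. Their median centred level was -0.25 with CTX and -0.26 in control. The 3′ minus 5′ signal of the ACTB control probes was also higher with CTX in SQ20B, by 0.29, and that of GAPDH by 0.07, neither with overlap of arrays. The part of any of these in the FN1 change was not tested.

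The FN1 start region is shown because FN1 had the largest rise of the structural genes and its promoter is known for a cyclic AMP response element. RefSeq (GRCh38.p14) windows of 300 bases, from 250 before to 50 after a transcript start, were at hand for 5 of the 10 genes in 12 windows. They were searched on both strands for that element, TGACGTCA, and for the E-box bound by ZEB and SNAI factors, CACCTG or CAGGTG. The third pattern was TGANTCA, a loose form of the AP-1 motif that takes any base at N. The FN1 window, chr2:215436019-215436318 on the minus strand, held 1 TGACGTCA at its base 68, in capitals:
FN1 promoter window: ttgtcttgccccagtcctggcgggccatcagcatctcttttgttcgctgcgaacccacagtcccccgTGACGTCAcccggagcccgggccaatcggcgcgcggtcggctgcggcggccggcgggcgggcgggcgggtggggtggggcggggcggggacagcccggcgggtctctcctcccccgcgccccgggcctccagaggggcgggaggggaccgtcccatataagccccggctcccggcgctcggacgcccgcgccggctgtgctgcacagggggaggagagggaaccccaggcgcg
Of 35116 windows of this length, 1.85% held that motif. A match is a description of letters, not of a bound site.

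TWIST1 changed strongly and in opposite directions. SQ20B arrays were 9.19, 9.09 and 8.92 with CTX against 8.32, 7.82 and 8.09 in control, a rise of 0.99 ± 0.12 or 1.98-fold (adjusted p = 1.13e-07). SCC047 arrays were 6.99, 7.23 and 7.21 with CTX against 8.29, 7.99 and 7.88 in control, a change of -0.91 or 1.88-fold lower (adjusted p = 4.49e-07), and SCC61 arrays were 9.27, 9.29 and 9.25 against 9.81, 10.03 and 9.73 (change -0.59, adjusted p = 0.000169). The groups did not overlap in these 3 lines, while SCC25, SCC090 and 93VU147T changed by -0.11 to -0.04 with no call. SQ20B and SCC047, whose TWIST1 levels were 8.08 and 8.05 in control, differed after CTX, SCC047 minus SQ20B being -1.92 (adjusted p = 1.98e-16). The mean of -0.13 (adjusted p = 0.0388) depended on single lines: it was 0.03 without SCC047, -0.03 without SCC61 and -0.35 without SQ20B. It was not called in 16 of the 36 fits that left out 1 array (adjusted p between 0.0505 and 0.0760), arrays of all 6 lines among them, nor with centred array medians (adjusted p = 0.0740) or without SCC25 (adjusted p = 0.0504). In SCC047 the 3′ minus 5′ signal was higher with CTX by 0.11 for ACTB and 0.04 for GAPDH, without overlap of arrays, and its part in the TWIST1 changes there and in SQ20B was not tested.

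SNAI2 fell in SCC61, where it had been highest. Arrays there read 11.44, 11.55 and 11.46 with CTX against 12.01, 12.13 and 12.09 in control (change -0.59, adjusted p = 2.63e-05). It fell by 0.31 in 93VU147T (9.99, 9.97 and 9.99 with CTX, 10.08, 10.33 and 10.47 in control, adjusted p = 0.023), a call lost without control replicates 2 or 3 or CTX replicates 2 or 3. SCC25, SQ20B and SCC047 had values of -0.23 to -0.19 with no call, and SCC090 had 0.15, and stayed uncalled without its deviating control (adjusted p near 1). In SQ20B the change was -0.31 (adjusted p = 0.0287) without control replicate 3, the 1 array of another batch. The mean was -0.23 ± 0.04 (adjusted p = 5.98e-05).

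ZEB1 fell in the 3 lines where its untreated signal was above the array median by the most. SCC61 arrays were 4.74, 4.81 and 4.82 with CTX against 5.17, 5.47 and 5.52 in control (change -0.59, adjusted p = 1.09e-05). SCC25 gave -0.32 (adjusted p = 0.0285) and SQ20B -0.31 (adjusted p = 0.0162), and each of these calls was lost without 3 of the line's 6 arrays, control replicates 2 and 3 and CTX replicate 2 in SCC25 and control replicates 1 and 2 and CTX replicate 3 in SQ20B. In SCC047, SCC090 and 93VU147T the values lay between -0.09 and 0.04. A further 2 ZEB1 probe sets also fell in SQ20B and SCC61, 212764_at by 0.48 in SQ20B and by 0.52 in SCC61, and 210875_s_at by 0.34 and 0.25 in the same lines, while 239952_at gave 0.11 in SCC61 and none of the 3 passed in SCC25. The mean of 6 lines was -0.23 (adjusted p = 4.29e-05).

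ZEB2 ran against ZEB1 in SCC61. On the brightest probe set it read 4.10, 4.00 and 4.07 with CTX and 3.90, 3.66 and 3.81 in control, a rise of 0.26 (adjusted p = 0.0448) that was lost without any 1 of 5 of the 6 arrays (adjusted p between 0.0555 and 0.197). The dimmer probe sets moved further. On 203603_s_at the SCC61 arrays were 4.81, 5.22 and 4.65 with CTX against 3.49, 3.37 and 3.99 in control (change 1.28, adjusted p = 3.62e-09), with 228333_at rising by 0.92, 235593_at by 0.66 and 233031_at by 0.29. No ZEB2 probe set was called in another line, and in SCC61 34.9% of all probe sets were called. Every ZEB2 value except 1 array lay below the median of all values.

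**Figure D3:**
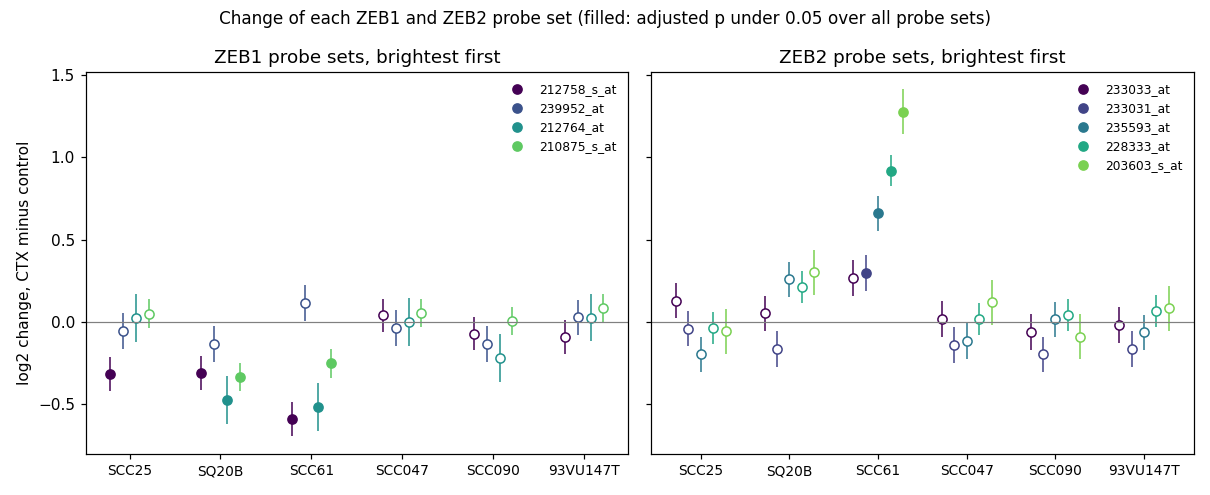
Log2 change, CTX minus control, of each ZEB1 (left) and ZEB2 (right) probe set in the 6 lines, with bars of 1 standard error and filled points for an adjusted p under 0.05 over all probe sets. In SCC61 3 of 4 ZEB1 probe sets lie below 0 and all ZEB2 probe sets above it, up to 1.28.

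The ZEB1 window with the most E-boxes is shown because ZEB1, a repressor that itself binds E-boxes, was called lower in 3 lines. It spans chr10:31318966-31319265 on the plus strand and held 3 of them, in capitals, beginning at bases 9, 166 and 284:
ZEB1 promoter window: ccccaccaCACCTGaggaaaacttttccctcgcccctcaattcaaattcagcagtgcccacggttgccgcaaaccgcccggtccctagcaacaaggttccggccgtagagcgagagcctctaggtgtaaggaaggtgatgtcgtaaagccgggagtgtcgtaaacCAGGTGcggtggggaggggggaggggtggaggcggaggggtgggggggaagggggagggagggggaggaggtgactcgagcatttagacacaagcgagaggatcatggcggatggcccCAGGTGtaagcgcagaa
At least 1 E-box was present in 20.6% of all windows. Another ZEB1 window held 1 E-box. The loose AP-1 pattern, present in 7.71% of all windows, occurred once in a CDH2 window, as TGAATCA. The VIM and ZEB2 windows held none of the 3 motifs.

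**Figure D4:**
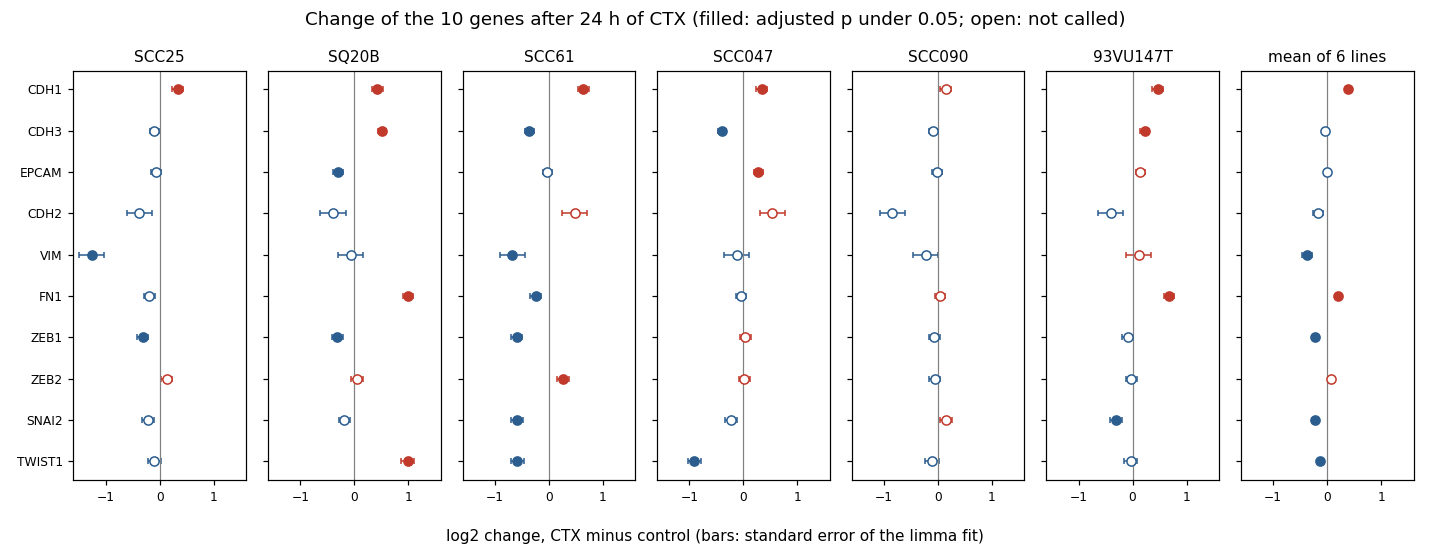
Log2 change, CTX minus control, of the 10 genes in each of the 6 lines and for their mean, with bars of 1 standard error. Filled points passed an adjusted p of 0.05 and open points did not. With all arrays CDH1 lies right of 0 in all 6 lines, from 0.14 in SCC090 (0.02 without the deviating control array) to 0.64 in SCC61, and TWIST1 runs from -0.91 in SCC047 to 0.99 in SQ20B.

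By line, SCC61 gave 2 genes higher (CDH1 and ZEB2) and 6 lower (CDH3, VIM, FN1, ZEB1, SNAI2 and TWIST1), beside 24.4% of all genes higher and 19.8% lower. SQ20B gave 4 higher (CDH1, CDH3, FN1 and TWIST1) and 2 lower (EPCAM and ZEB1), beside 18.4% and 14.9%. SCC047 gave 2 higher (CDH1 and EPCAM) and 2 lower (CDH3 and TWIST1), beside 17.3% and 19%. In 93VU147T 3 genes were higher (CDH1, CDH3 and FN1) and 1 lower (SNAI2), beside 15.8% and 18.8%.

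SCC25 gave 1 gene higher (CDH1) and 2 lower (VIM and ZEB1), beside 8.66% and 7.3% of all genes. SCC090 gave none of the 10 in either direction, in a line where 0.516% of all genes were called higher and 0.885% lower. Of all SCC090 calls 36.8% were higher, and 47.9% after quantile normalization. The centred mesenchymal minus epithelial difference was 1.17 with CTX against 1.53 in control for SCC61, 0.09 against 0.48 for SCC25, -0.04 against 0.14 for SCC047 and -0.40 against -0.11 for 93VU147T. It was -0.46 against -0.40 for SQ20B, and -0.66 against -0.49 for SCC090, with overlapping arrays in both lines. With ZEB1 and ZEB2 left out, SQ20B gave -0.45 with CTX against -0.51 in control, so that the direction in SQ20B turned. Without the deviating array, at -0.09, the other 2 SCC090 controls averaged -0.69, so that the direction in SCC090 turned.

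The change of each line was also tested against the mean change of the other 5, and 23 of the 60 such differences passed, beside 27.7% over all genes. TWIST1 in SQ20B lay 1.34 above the other lines' mean change (adjusted p = 2.52e-09) and FN1 in SQ20B 0.94 above it (adjusted p = 2.1e-08). VIM in SCC25 differed by -1.07 (adjusted p = 0.00143). CDH2 differed by 0.84 in SCC047 (adjusted p = 0.0125) and by 0.77 in SCC61 (adjusted p = 0.0224), the lines in which its CTX arrays lay above the controls. CDH1 in SCC090 differed by -0.30 with the deviating array (adjusted p = 0.0493) and -0.42 without it (adjusted p = 0.00498). For CDH2 in SCC090 the difference of -0.81 (adjusted p = 0.0166) was -0.23 and no longer called without that array (adjusted p = 0.207). With it out, CDH2 in SCC25, SQ20B and 93VU147T, CDH1 in SCC61 and VIM in SCC090 and 93VU147T passed in addition.

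SCC1, seen with CTX alone, was set against the 6 other treated lines, where 139 of 210 pairs of treated groups differed for the 10 genes, beside 50.4% over all genes. It was lowest for 3 of them. CDH1 read 9.72, 9.70 and 9.74 in SCC1, 1.13 below treated SCC61 (adjusted p = 1.29e-12), and the second CDH1 probe set was lowest there too, at 5.96 against 7.39 to 8.08 in the other treated lines. CDH2 read 4.97, 4.89 and 4.87, 0.88 below SCC61 (adjusted p = 0.000912), and VIM 5.81, 6.05 and 6.11, 0.54 below SQ20B (adjusted p = 0.0424). FN1 (10.03 ± 0.19) and EPCAM (10.92 ± 0.08) were high. The SCC1 arrays made up the batch of 4 with 1 SQ20B control, and the part of that batch in these differences was not tested.

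Other genes of the pathway were counted from lists of epithelial, mesenchymal and TGF-beta genes, over the mean of 6 lines and beside the 22.8% and 23.1% of all genes above. Of 20 junction and polarity genes, 10 rose and 1 fell, and the list's median was 0.10 against -0.02 for all genes. The largest changes were in CXADR (0.63), JUP (0.45), the plakoglobin gene, and OCLN (0.33), the occludin gene. This mean was not shared by all lines. The list's median was 0.25 in SCC25, 0.29 in SQ20B and 0.23 in SCC61, but -0.01 in SCC047, -0.03 in SCC090 and -0.02 in 93VU147T. Of 12 epithelial transcription and splicing regulators, 10 rose and 2 fell, led by GRHL1 (0.55), EHF (0.46) and ELF3 (0.44), with a median of 0.26. By line this list's median was 0.26 in SCC25, 0.31 in SQ20B, 0.32 in SCC61 and 0.32 in 93VU147T. It was 0.04 in SCC047 and 0.10 in SCC090. In SCC047 1 of the 12 rose and none fell, beside 17.3% and 19% of all genes, and in SCC090 none was called. In SCC61 6 of these 12 rose and 1 fell, beside 24.4% and 19.8% of all genes, and the leading ones were GRHL1 (1.20), OVOL2 (1.14) and GRHL2 (0.71), factors that hold epithelial identity. Of 14 other cadherins, 5 rose and 2 fell, and the atypical cadherins FAT2 (0.54) and FAT1 (0.35) were ahead of PCDH9 (0.27).

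The mesenchymal lists were mixed over the mean of lines. Of 17 other EMT transcription factors, 6 rose and 7 fell, with SOX9 at -0.77, HMGA2 at -0.73 and ID2 at 0.49. Among 20 cytoskeletal and surface genes 5 rose and 7 fell (NT5E -0.54, TPM1 0.53, EMP3 -0.33), and among 17 matrix genes 7 rose and 4 fell (SPARC -0.56, TNC 0.49, COL1A1 0.38). The matrix list differed by line. In SCC25 7 of the 17 rose and none fell, beside 8.66% and 7.3% of all genes. In SQ20B 8 rose and none fell, beside 18.4% and 14.9%. Matrix genes rose and fell in SCC61 (6 and 3), SCC047 (2 and 5) and 93VU147T (2 and 6), and none was called in SCC090. Of 11 genes linked to partial EMT in squamous carcinoma, 3 rose and 5 fell, led by the protease genes MMP1 (-0.77) and PLAU (-0.76) and the activin subunit gene INHBA (-0.67).

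TGF-beta signalling genes, which induce EMT in many epithelia, gave 2 of 16 higher and 5 lower over the mean of lines (PMEPA1 -0.53, TGFB1 -0.30, TGIF1 -0.28). In SCC61 10 of the 16 fell and 1 rose, beside 19.8% and 24.4% of all genes in that line: the ligand gene TGFB1 changed by -1.25, the corepressor gene TGIF1 by -0.92, and the inhibitor gene SMAD7 by 1.03. That list's median in SCC61 was -0.27, against -0.03 for all genes. Of the markers of other cell types over the mean of lines, 4 of 5 keratinocyte genes rose and none fell, and 2 of 10 fibroblast genes rose and 2 fell. None of 6 leukocyte, 6 endothelial and 3 melanocyte markers rose, and 2, 1 and 1 of them fell. In SCC25 4 of the 10 fibroblast genes rose and none fell, beside 8.66% and 7.3% of all genes. Their summed linear signal there was 1948 to 2163 with CTX against 1289 to 1328 in control.

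Genes with the pattern most like 3 of the 10 were found by Pearson correlation over the 14 group means, among 4278 genes spanning at least 2 log2 units. CDH1 was most like KIAA1217 (0.92), COL7A1 (0.89), the anchoring fibril collagen, and DSC3 (0.85), a desmosomal cadherin, and most unlike QPCT (-0.89). VIM was most like HS3ST3B1 (0.94), CTSO (0.88) and ZNF606 (0.86), and most unlike SPIN3 (-0.94). ZEB1 was most like CDR2 (0.81), SNAPC1 (0.78) and the ERK phosphatase gene DUSP5 (0.78), and most unlike C2orf68 (-0.85). The points share lines, since 6 lines enter with and without CTX, and these values are descriptions without a test.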

How the data were processed

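The values were the log2 expression levels per probe set that the authors deposited in 1 table for 42 Affymetrix hgu133plus2.0 arrays. The study's methods name fRMA for the normalization, which sets every array against a fixed reference, and pSVA for removing batch effects. Whether the deposited values carry that correction is not given in the sources used here, and a correction could narrow differences between batches and between lines. The methods also state that arrays that did not cluster with their replicates were removed.

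Of 54675 probe sets, 62 were array controls, 41091 named 1 gene symbol, 1801 several and 11721 none listed in the annotation given. Of those naming 1 gene, 41037 matched by gene identifier and 54 did not. They gave 19775 genes, 10523 of them with more than 1 probe set, and the brightest over all arrays stood for the gene. Every column of values was used (0 left out).

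Changes were fitted with limma 3.58.1 in R 4.3.3 over the 36 arrays of the 6 lines with both groups (12 group means, 24 residual degrees of freedom), and levels over all 42 arrays (14 group means). P-values are from moderated statistics, two-sided, with Benjamini-Hochberg adjustment, and a call is an adjusted p under 0.05. For changes with CTX the adjustment ran across the 19775 genes of each contrast. For differences in change it ran over all genes and all 6 contrasts together. For levels it ran over all genes and all 21 pairs together, separately for untreated and treated groups. Tables and figures were made with Python 3.11.15, pandas 2.3.3 and matplotlib 3.10.9. The model code was tested on simulated data. An array measures no read depth, and the 3 arrays per group limit the precision.

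The 10 genes and the pathway and marker lists were chosen with earlier results of these data known, so no count over them is independent evidence. Named were all 10 genes, the 3 genes per list with the largest called change in a contrast described, and the 3 genes most like or unlike CDH1, VIM and ZEB1. For untreated levels, list genes with a wide range over the groups were named. Single cell type markers and DUSP6 were named as checks. Alternatives were another probe set per gene, averaged probe sets, centring of array medians, quantile normalization, a filter on dim genes, an intensity trend, batch and replicate terms, all arrays in 1 fit, and leaving out arrays or lines. HaCaT replicates 1 and 2 share a sample number in their array names, and 1 alternative averaged them.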

Additional observations from a re-analysis of the deposited data

Results flagged for a closer look

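The change of a line passed a test against the mean change of the other 5 lines in 23 cases, each given as the difference in log2 units, line minus the other 5. In SCC25 the values were -1.0681 for VIM and -0.4711 for FN1. In SQ20B they were 0.6539 for CDH3, -0.3707 for EPCAM, 0.9447 for FN1 and 1.3371 for TWIST1. In SCC61 they were -0.3895 for CDH3, 0.7735 for CDH2, -0.5361 for FN1, -0.443 for ZEB1, -0.4298 for SNAI2 and -0.5526 for TWIST1. In SCC047 they were -0.4331 for CDH3, 0.334 for EPCAM, 0.8431 for CDH2, -0.299 for FN1, 0.3163 for ZEB1 and -0.9382 for TWIST1. In SCC090 they were -0.2966 for CDH1, -0.8093 for CDH2 and 0.4536 for SNAI2, and in 93VU147T they were 0.3121 for CDH3 and 0.5665 for FN1. The CDH2 difference in SCC090 was not called without SCC090 control replicate 1, and VIM in SCC090 was then called at 0.62.

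Probe sets that did not stand for their gene also gave called changes, CTX minus control, where the gene's own probe set was smaller or not called. ZEB2 in SCC61 changed by 1.2784 on 203603_s_at, 0.92 on 228333_at, 0.6591 on 235593_at and 0.2948 on 233031_at. CDH2 in SQ20B changed by -0.6051 on 203441_s_at, and FN1 in SCC047 by -0.5341 on 214702_at, on which the SQ20B value was -0.01.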

How the results depend on the processing

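Of 31 called changes of single genes, the mean of lines included, 5 turned sign under some alternative. With the probe set of next brightness VIM in SCC25 gave 0.0063, CDH1 in SQ20B -0.2213 and ZEB1 in SCC61 0.113. With the probe set chosen by the ratio of deviations between and within groups, added after the data were seen, ZEB1 in SCC25 gave 0.0212, and TWIST1 over the mean of lines gave 0.0305 without SCC047. Signs turned in 65 of 801 alternative values of changes that were not called. Under the scalings, 4 calls were lost: FN1 in SCC61 and TWIST1 over the mean of lines with centred medians, and EPCAM in SCC047 and CDH3 in 93VU147T after quantile normalization, which added SNAI2 in SCC047 (-0.30, adjusted p = 0.0309). With the probe set of next brightness the means of VIM (-0.04) and ZEB1 (-0.04) were not called. The cause was not tested.

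The number of the 10 genes called in SCC25 was 0 with the probe set of next brightness and 1 with the mean of probe sets, that in SCC61 was 5 with the probe set of next brightness, and that in SCC090 was 1 with an intensity trend, with batch as a covariate and with all 42 arrays in the fit. Leaving out 1 array at a time gave 1 to 3 calls in SCC25, 4 to 7 in SQ20B, 5 to 7 in SCC61, 3 to 4 in SCC047, 0 to 1 in SCC090 and 2 to 3 in 93VU147T. It gave 5 to 7 for the mean of lines, 20 to 28 differences in change, 146 to 152 untreated pairs and 136 to 142 treated pairs. SCC25 control replicates 2 and 3 and CTX replicate 2, SCC61 CTX replicate 2, and 93VU147T control replicate 2 and CTX replicate 2 each moved their line's count to its lowest value. SCC090 control replicates 2 and 3 each moved it to 1.

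Replicate numbers did not pair CTX with control arrays evenly over the lines: 7 of 18 same-number correlations of deviations were over 0.1, and 9 of 18 were the best for their array. They were the best throughout SQ20B and never in SCC090. With the replicate block 3 genes were called in SCC25, 6 in SQ20B, 8 in SCC61, 4 in SCC047, 0 in SCC090 and 3 in 93VU147T, 6 for the mean and 23 differences. CDH3 in 93VU147T was the call lost (adjusted p = 0.0526). Signals near the array median limit what ZEB1 and ZEB2 can show.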
